A study of Mus musculus with 6 samples.

Results

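The matrix-cleaving proteases and their inhibitors comprised 84 genes of the 55487 gene identifiers in the count table. They were taken by symbol, as all Mmp, Timp1 to Timp4, Adam, Adamts and Adamtsl genes. The set held 23 Mmp, 4 Timp, 33 Adam, 19 Adamts and 5 Adamtsl genes. Bulk polyA RNA-sequencing was performed on skin cells of C57BL/6 mice aged 2 to 3 months that were enriched with CD31 beads and are labelled endothelial cells (ECs). An isolation used 4 to 6 mice. The 3 normal glucose samples were cultured in 5 mmol/L glucose and the 3 high glucose samples in 20 mmol/L glucose, both for 48 hours, to ask how high glucose changes gene expression in ECs. Both groups carry the same genotype label, C57BL/6. The study counts the replicates of this comparison in mice, while the labels describe cells pooled from several mice in an isolation, so how the samples relate to animals and isolations is not clear. P values weigh the difference between the groups against the spread between these samples.

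MMPs (matrix metalloproteinases), ADAMs and ADAMTS enzymes are related zinc proteases that act outside the cell or at its surface. MMPs cleave collagens and other matrix proteins, ADAMTS enzymes process procollagens and proteoglycans, and many ADAMs release membrane-bound growth factors and receptors. TIMPs are secreted proteins that block the active site, ADAMTS-like proteins resemble ADAMTS enzymes but have no protease domain, and in skin this system acts in wound repair and vessel growth.

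The catalytic residues are visible in the coding sequence. The sites below show 1 member of each protease family and are spliced coding sequence of GENCODE M21 transcripts on GRCm38, read 5′ to 3′, with the codons of the 3 zinc-binding histidines in capitals. The Mmp3 site lies in exon 5 of 10 at chr9:7449775-7449807 on the plus strand. The Adam12 site lies in exon 11 of 23 at chr7:133961158-133961190 on the minus strand. The Adamts5 site spans a splice junction on the minus strand, from exon 2 (chr16:85887817-85887826) to exon 3 (chr16:85878015-85878037) of 8.
Mmp3: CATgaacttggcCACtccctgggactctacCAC
Adam12: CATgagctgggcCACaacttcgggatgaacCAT
Adamts5: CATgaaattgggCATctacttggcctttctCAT
In translated reading frames, the motif with glycine at its eighth place was present in 23 of 23 Mmp, 13 of 19 Adamts and 20 of 33 Adam genes. Allowing asparagine or serine at that place, a change made after the first count was seen, brought Adamts to 19 of 19 and left Mmp and Adam at the same counts. No Adamtsl or Timp gene held it under either form.

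The samples had total counts between 120192466 and 146881356, and the members held 1.10 to 1.14% of them. Levels are given in CPM, the count scaled to a common library size, here after TMM scaling. Several defining endothelial genes were at or near 0. Tie1, Emcn, Cldn5 and Robo4 were too low to test, and Pecam1, which encodes the CD31 used for enrichment, lay between 0.0634 and 0.152 CPM. The 14 endothelial markers summed to 216 to 243 CPM in normal and 194 to 200 CPM in high glucose, mostly Eng and Flt1, and of 10 tested 2 rose (Tek and Erg), 3 fell (Cdh5, Egfl7 and Flt1) and 5 were not called. The 12 fibroblast markers summed to 38897 to 42126 CPM in normal and 70938 to 75881 CPM in high glucose, where 9 rose and 3 fell. For both marker counts, the shares of all tested genes were 16.9% higher and 14.5% lower. In bulk samples, fewer cells of a type and less RNA per cell cannot be told apart, and the part of these marker shifts in the results below was not tested.

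Of the 84 members, 62 passed the filter on low counts. The other 22 had at most 18 counts in any sample, and 10 of them had none in all 6 samples. High glucose raised 24 tested members (38.7%) and lowered 18 (29.0%) at an adjusted P under 0.05 in the quasi-likelihood test of edgeR (Benjamini-Hochberg adjustment over all genes), against 16.9% of all 19015 tested genes higher and 14.5% lower. In either direction these were 42 members (67.7%), against 31.4% of all genes. A called change of at least 1 on the log2 scale was seen upward in 5 members (2.08% of all genes) and downward in 6 (2.85% of all genes). Groups were free of overlap in 50 members, against 46.4% of all tested genes, with 31 members higher (25.1% of all genes) and 19 lower (21.3%). The median log2 fold change was 0.15 for the members and 0.0062 for all genes tested, and the median absolute log2 fold change was 0.57 and 0.20. The direction split by family. Mmp genes were 5 higher, 12 lower and 2 not called, and Adamts genes 12 higher, 1 lower and 3 not called. Of the tested Adam genes, 14 of 18 were not called.

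**Figure D1:**
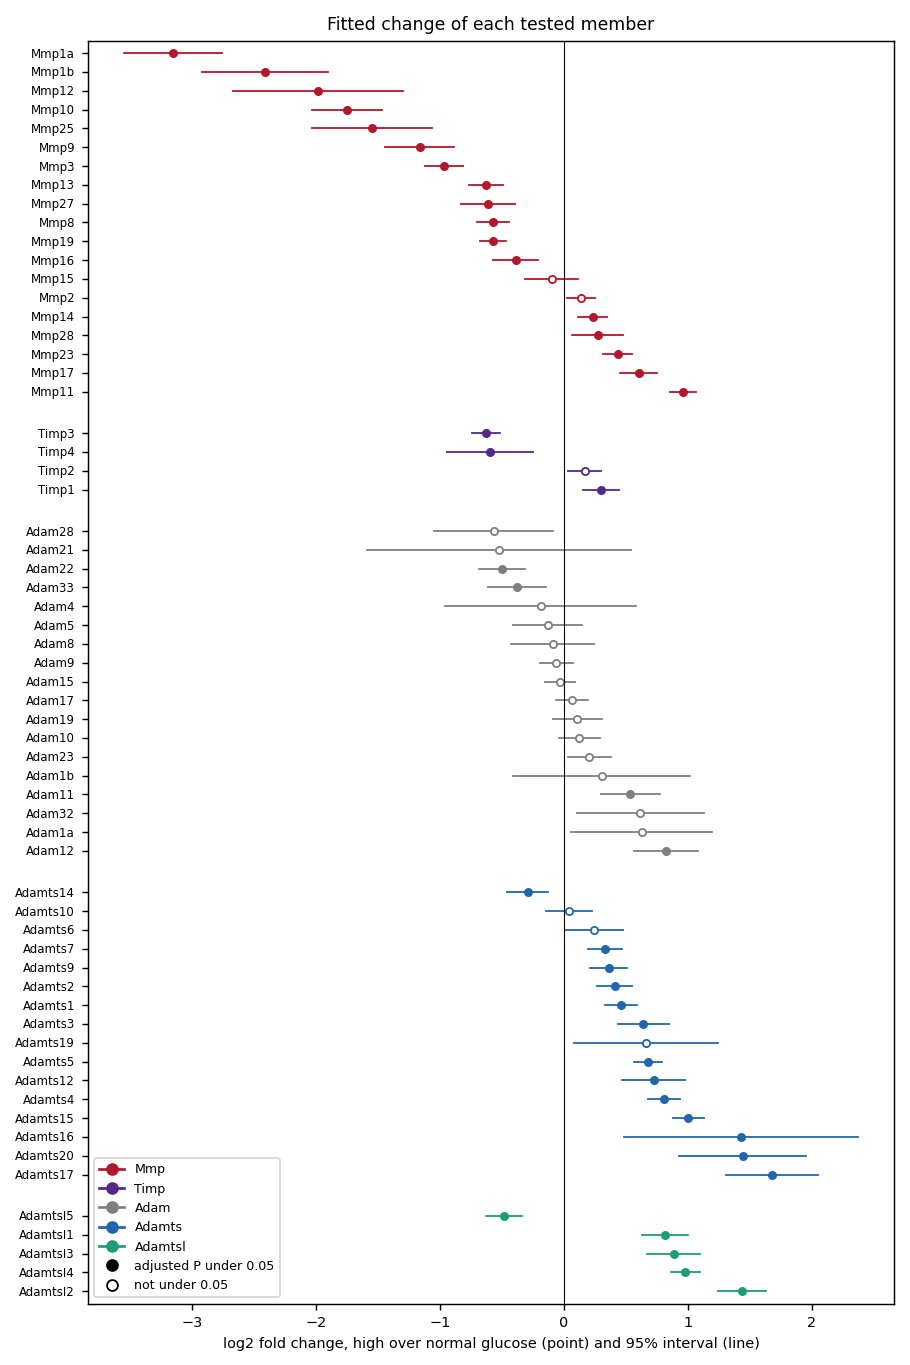
Log2 fold change of high over normal glucose (x axis) for each of the 62 tested members (y axis, grouped by family), with 95% intervals as lines and filled points for an adjusted P under 0.05. The Mmp genes reach from -3.15 to 0.96, and the Adamts genes lie to the right of 0 except Adamts14 at -0.29.

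All 4 collagenases, which cut fibrillar collagen, fell, against 14.5% of all tested genes. Mmp1a had 1.21, 1.16 and 1.30 CPM in normal glucose and 0.155, 0.129 and 0.126 CPM in high glucose, for a fitted log2 difference of -3.15 (SE 0.18, adjusted P = 7.24e-07), the largest change of any tested member. GENCODE M21 annotates this mouse gene as a polymorphic pseudogene. Its group ranges were far apart, on 152 to 167 counts against 15 to 22. Mmp1b, its neighbouring copy, had 0.886, 0.790 and 0.797 CPM in normal and 0.197, 0.103 and 0.156 CPM in high glucose, for a fitted log2 difference of -2.41 (SE 0.23, adjusted P = 2.56e-05). The coding sequences of Mmp1a and Mmp1b are 90.2% identical and their transcripts share a run of 134 bases, so how reads were divided between them is uncertain. Mmp8, the neutrophil collagenase, had 81.4, 91.7 and 87.1 CPM in normal and 56.5, 60.4 and 57.9 CPM in high glucose, for a fitted log2 difference of -0.58 (adjusted P = 4.31e-05). Mmp13, collagenase 3, had 34.8, 35.9 and 32.5 CPM and then 21.001, 23.4 and 22.4 CPM (log2 fold change -0.63, adjusted P = 3.31e-05). Both fell without overlap, by less than Mmp1a and Mmp1b.

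The stromelysins moved in both directions. The products of Mmp3 and Mmp10 cleave proteoglycans and activate other MMPs. Mmp3 (stromelysin 1) had 2005, 1751 and 1742 CPM in normal and 891, 996 and 921 CPM in high glucose, for a fitted log2 difference of -0.97 (SE 0.070, adjusted P = 3.91e-06). Mmp10 (stromelysin 2) had 10.6, 8.81 and 10.0 CPM in normal and 2.74, 3.48 and 2.51 CPM in high glucose, for a fitted log2 difference of -1.75 (SE 0.13, adjusted P = 4.05e-06). Every high glucose sample lay below every normal glucose sample for both genes. Their coding sequences are 78.3% identical and their transcripts share a run of 104 bases, so reads of the far more abundant Mmp3 may have been counted for Mmp10. Mmp11 (stromelysin 3), which carries a site for activation by furin-type enzymes, went the other way. It had 183, 182 and 191 CPM in normal and 362, 358 and 363 CPM in high glucose, for a fitted log2 difference of 0.96 (SE 0.048, adjusted P = 3.23e-07). The groups were widely separated and the high glucose samples nearly equal.

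The gelatinases, which degrade denatured collagen and basement membrane collagen, differed in level and in call. Mmp2 had 1766, 1785 and 1900 CPM in normal and 2020, 1967 and 2006 CPM in high glucose. The groups did not overlap, but the difference was not called (log2 fold change 0.14, 95% interval 0.02 to 0.25, adjusted P = 0.0657). Mmp9 had 2.39, 2.66 and 2.59 CPM in normal and 1.23, 0.963 and 1.21 CPM in high glucose, for a fitted log2 difference of -1.16 (adjusted P = 6.41e-05). It fell in every high glucose sample, at a level far below that of Mmp2.

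Mmp12, the macrophage metalloelastase, had 0.583, 0.367 and 0.414 CPM in normal and 0.127, 0.0688 and 0.141 CPM in high glucose, for a fitted log2 difference of -1.99 (SE 0.31, adjusted P = 0.000765). It fell, although on 8 to 73 counts, and its exons overlap those of Mmp1b on the other strand by 157 bp, so without a stated strand setting their reads cannot be told apart. The macrophage markers Ptprc, Adgre1 and Itgam were at or near 0. The 8 macrophage markers summed to 17.4 to 19.6 CPM in normal and 26.8 to 27.9 CPM in high glucose. Of 5 tested, 1 was higher and 2 lower, against 16.9% and 14.5% of all tested genes.

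Membrane-type MMPs, which are anchored at the cell surface, were 2 higher, 2 lower and 1 not called among 5 tested. Shares of all tested genes were 16.9% higher and 14.5% lower. Mmp14, the main activator of pro-MMP2, had 771, 731 and 800 CPM in normal and 906, 877 and 918 CPM in high glucose, for a fitted log2 difference of 0.23 (SE 0.053, adjusted P = 0.00809). It rose without overlap, but the call was lost with library size scaling (log2 fold change 0.12, adjusted P = 0.102), without high glucose replicate 1 (adjusted P = 0.0565) and without high glucose replicate 3 (adjusted P = 0.0708). Mmp25, a membrane-anchored enzyme known from leukocytes, had 0.551, 0.529 and 0.656 CPM in normal and 0.240, 0.163 and 0.185 CPM in high glucose, for a fitted log2 difference of -1.55 (SE 0.22, adjusted P = 0.000401). Mmp17 rose by 0.60, Mmp16 fell by 0.39 and Mmp15 had -0.10 with a 95% interval of -0.31 to 0.11, all on the log2 scale.
Among the remaining MMPs, Mmp19 and Mmp27 fell (log2 fold changes -0.57 and -0.62) and Mmp23 rose (0.43). Mmp28 was called higher (0.27, adjusted P = 0.0472), but the call was lost in 15 of 19 alternative fits.

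**Figure D2:**
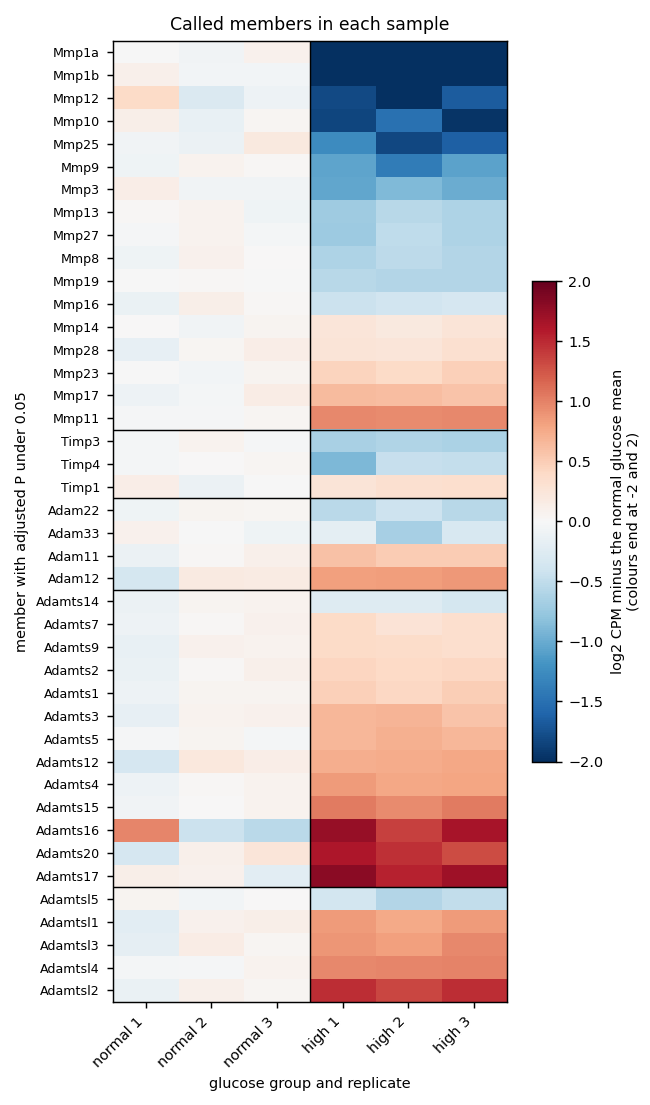
Level of each of the 42 members with an adjusted P under 0.05 (rows, grouped by family) in each of the 6 samples (columns), as log2 CPM minus the mean of the normal glucose samples, red for higher and blue for lower, with colours ending at -2 and 2. The 3 high glucose samples have the same colour direction in every row, which is in part built in, since rows were chosen by their call in these samples. Adamts16 in normal glucose replicate 1 stands out among low-count rows.

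The fall in Mmp genes was concentrated in one place. Chromosome 9 carries 10 Mmp genes side by side over 427 kb (chr9:7272514-7699585), grouped here after their values were seen. Of these, 8 were tested and all 8 fell, namely Mmp13, Mmp12, Mmp1b, Mmp3, Mmp1a, Mmp10, Mmp8 and Mmp27, while Mmp20 and Mmp7 were too low to test. The 11 tested Mmp genes elsewhere were 5 higher, 4 lower and 2 not called. Of the 10 other tested genes within 500 kb on either side, 3 rose and 1 fell, against 16.9% and 14.5% of all tested genes. Dync2h1 rose by 0.67 and Cep126 was the 1 that fell (log2 fold change -0.71). No test of the cluster as a unit was made.

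**Figure D3:**
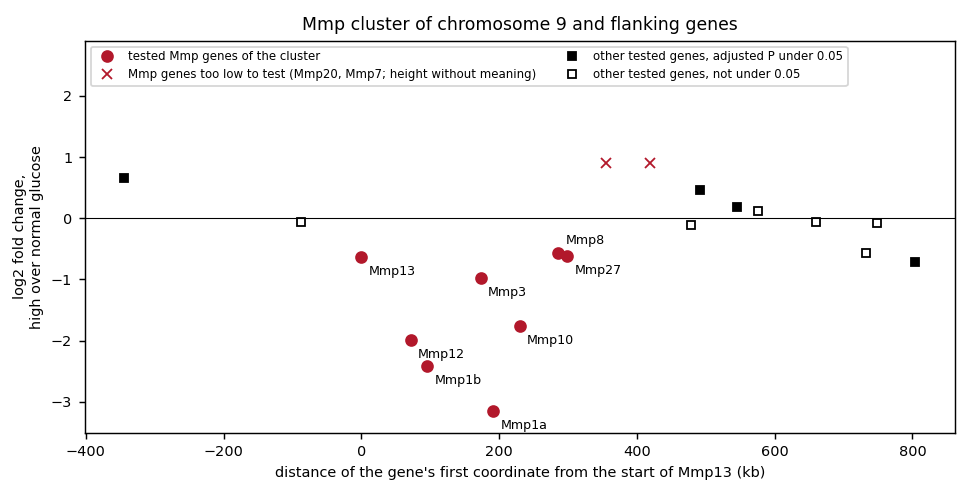
Log2 fold change of high over normal glucose (y axis) against distance from the start of Mmp13 in kb (x axis) for the Mmp cluster of chromosome 9 (circles) and other tested genes within 500 kb (squares, filled for an adjusted P under 0.05), with crosses for Mmp20 and Mmp7, which have no value. All 8 tested Mmp genes lie below 0, from -0.58 to -3.15, and the flanking genes lie on both sides of it.

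The upstream sequences of cluster genes share short patterns. The 150 bases before the RefSeq start site (GRCm38.p6) are shown for 4 cluster genes that fell and hold TGANTCA, the pattern recognized by AP-1 family factors, for Mmp8, a cluster gene that fell and does not hold it, and for Mmp11, which rose. Capitals mark the match. The windows are chr9:7463991-7464140 for Mmp1a, chr9:7502192-7502341 for Mmp10, chr9:7445672-7445821 for Mmp3, chr9:7272364-7272513 for Mmp13 and chr9:7558279-7558428 for Mmp8, all on the plus strand, and chr10:75932503-75932652 on the minus strand for Mmp11.
Mmp1a: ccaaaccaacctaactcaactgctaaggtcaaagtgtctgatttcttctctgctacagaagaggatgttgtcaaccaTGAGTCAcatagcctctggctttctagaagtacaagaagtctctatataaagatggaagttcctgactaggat
Mmp10: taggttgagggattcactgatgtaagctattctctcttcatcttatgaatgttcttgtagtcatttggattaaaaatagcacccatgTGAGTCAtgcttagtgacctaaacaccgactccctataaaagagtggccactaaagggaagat
Mmp3: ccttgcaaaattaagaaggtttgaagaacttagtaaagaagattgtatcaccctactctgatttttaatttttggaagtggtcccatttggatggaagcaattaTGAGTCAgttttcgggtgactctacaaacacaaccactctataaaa
Mmp13: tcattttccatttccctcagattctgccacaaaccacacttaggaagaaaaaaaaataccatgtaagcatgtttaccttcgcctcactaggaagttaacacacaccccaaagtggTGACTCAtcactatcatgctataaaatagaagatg
Mmp8: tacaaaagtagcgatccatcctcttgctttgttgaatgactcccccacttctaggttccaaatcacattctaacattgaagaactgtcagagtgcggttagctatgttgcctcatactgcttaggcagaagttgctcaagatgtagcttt
Mmp11: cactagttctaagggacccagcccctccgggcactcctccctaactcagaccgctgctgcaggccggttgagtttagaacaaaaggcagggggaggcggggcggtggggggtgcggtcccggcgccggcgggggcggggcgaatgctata
The match began 73 bases before the start in Mmp1a, 63 in Mmp10, 46 in Mmp3 and 35 in Mmp13. Promoter windows of 300 bases (250 before to 50 after the start) were found by symbol for 53 of the 84 members. TGANTCA, which reads the same on both strands, was present for 6 of 14 lower, 0 of 15 higher, 2 of 11 uncalled and 5 of 13 untested members, against 7.81% of all windows and 8.97% of all genes with a window. All 6 lower members with a match were among the 8 tested cluster genes, and none of the 6 lower members outside the cluster had one. Mmp12 held it in 1 of 2 windows. The untested cluster genes Mmp20 and Mmp7 also had a match. Some cluster genes are close copies, such as Mmp1a and Mmp1b (coding identity 90.2%), so the matches are not independent.

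TGANTCA was singled out after values were seen, from 6 patterns counted on both strands. Its narrower form, TGACTCA or TGAGTCA, was present for the same number of lower members, 6 of 14, for 0 of 15 higher members and for 5.95% of genes. TATAAA was present for 7 of 14 lower and 2 of 15 higher members (15.7% of genes), and for 7 of the 8 cluster genes. GGAAGT gave 8 of 14 and 2 of 15 (26.5% of genes). AGGAAG, which overlaps GGAAGT in its letters, gave 9 of 14 and 3 of 15 (38.4% of genes). CACGTG gave 0 of 14 and 1 of 15 (8.09% of genes). Base composition differed alongside. Median GC content was 43.7% in the windows of lower members, 64.2% in those of higher members and 52.7% in all windows. Among the lower members, it was 40.7% for the cluster genes and 66.7% for those outside the cluster. The part of base composition in these counts was not tested.

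The inhibitors also moved in both directions, 1 higher, 2 lower and 1 not called, against 16.9% of all tested genes higher and 14.5% lower. Timp1, a soluble inhibitor of most MMPs, had 467, 396 and 424 CPM in normal and 511, 533 and 542 CPM in high glucose, for a fitted log2 difference of 0.30 (SE 0.065, adjusted P = 0.00578). Timp2, which inhibits MMPs and also takes part in MMP2 activation, had 1339, 1503 and 1519 CPM in normal and 1607, 1642 and 1649 CPM in high glucose, for a fitted log2 difference of 0.17 (95% interval 0.04 to 0.30, adjusted P = 0.0545). Neither gene's groups overlapped, and only Timp1 was called by this test. Timp3, which binds to matrix and also inhibits ADAM17 and aggrecanases, had 133, 143 and 135 CPM in normal and 87.7, 90.6 and 88.4 CPM in high glucose, for a fitted log2 difference of -0.63 (SE 0.051, adjusted P = 9.08e-06). Timp4 had 0.982, 1.01 and 1.03 CPM in normal and 0.543, 0.731 and 0.727 CPM in high glucose, for a fitted log2 difference of -0.60 (SE 0.16, adjusted P = 0.0155). Both fell without overlap, and the Timp4 call was lost without high glucose replicate 1 (adjusted P = 0.0543). Timp3 and Syn3 share 1733 bp of exon on opposite strands, and Timp4 and Syn2 share 90 bp. The same holds for Mmp11 with Chchd10 (155 bp), Mmp19 with Tmem198b and Gm47093 (1001 bp), Mmp28 with 1700020L24Rik (466 bp), Adamts9 with A730049H05Rik and Gm15737 (1805 bp), Adamts7 with Tbc1d2b (122 bp), Adam15 with 4731419I09Rik (1263 bp), Adam19 with Gm16033 and Gm16034 (1067 bp) and Adam17 with Iah1 (311 bp), whose reads cannot be told apart without strand.

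Levels per kilobase of exon placed these genes in order. In normal glucose, Mmp3 was the highest member at 1018 ± 82.8 CPM per kilobase (SD, n = 3), followed by Mmp2 at 539 ± 21.5, Timp1 at 483 ± 40.6 and Timp2 at 373 ± 25.7. In high glucose Timp1 was highest at 595 ± 18.0, then Mmp2 at 593 ± 8.19, Mmp3 at 520 ± 30.0 and Timp2 at 419 ± 5.76. Timp1 and Mmp2 in high glucose did not differ beyond their spread. The ratio of Mmp3 to Mmp2 per kilobase was 2.13, 1.84 and 1.72 in normal and 0.826, 0.948 and 0.860 in high glucose, so their order turned in all samples.

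**Figure D4:**
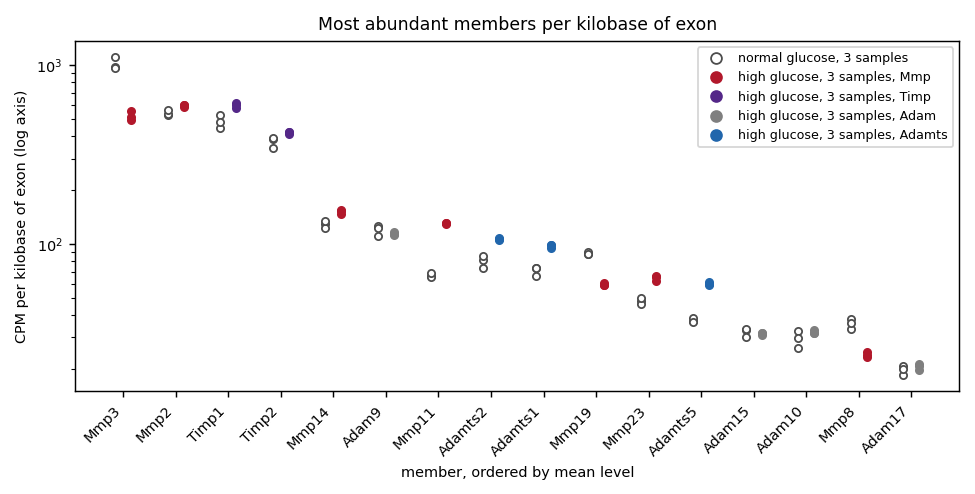
CPM per kilobase of exon (log axis) of the 16 members with the highest mean level (x axis), with open points for the 3 normal glucose samples and filled points, coloured by family, for the 3 high glucose samples. Mmp3, Mmp2, Timp1 and Timp2 stand above all others, and Mmp3 is the one of these 4 that is lower in high glucose.

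Summed over families, Timp over Mmp level per kilobase was 0.436, 0.448 and 0.456 in normal and 0.646, 0.653 and 0.669 in high glucose. Both sums moved. Summed Timp was 849 to 886 CPM per kilobase in normal and 999 to 1045 in high glucose. Summed Mmp was 1894 to 2031 in normal and 1546 to 1581 in high glucose. Mmp3 made up 49.9 to 54.8% of the summed Mmp level in normal and 32.0 to 35.0% in high glucose. With Mmp3 left out, the ratio was 0.965, 0.921 and 0.911 in normal and 0.950, 1.004 and 0.994 in high glucose, and the groups overlapped. These ratios were chosen after the values were seen, are RNA levels only and were given no test.

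**Figure D5:**
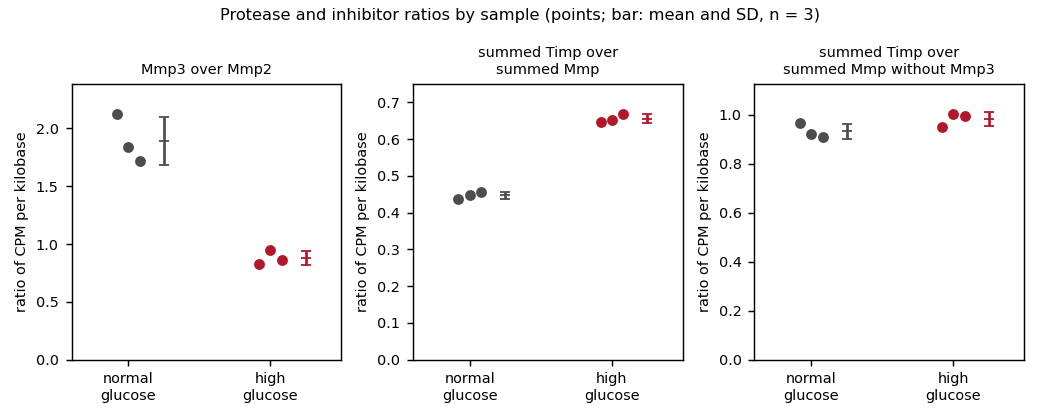
Ratios of CPM per kilobase (y axes, from 0) in each sample (points) with mean and SD (bars, n = 3) for Mmp3 over Mmp2, summed Timp over summed Mmp, and the latter without Mmp3. The groups are apart in the first and second panels and overlap in the third.

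Of the ADAMTS enzymes, those that cleave the proteoglycans aggrecan and versican moved together, with 6 of 6 tested members higher (median log2 fold change 0.74). The share of all tested genes called higher was 16.9%. Adamts1, which cleaves versican, had 350, 390 and 388 CPM in normal and 524, 502 and 526 CPM in high glucose, for a fitted log2 difference of 0.46 (SE 0.058, adjusted P = 0.000174). Adamts5, an aggrecanase that lies 53.06 kb from it on chromosome 16, had 398, 418 and 395 CPM and then 640, 662 and 637 CPM (log2 fold change 0.68, SE 0.050, adjusted P = 4.66e-06). Adamts4, the other main aggrecanase, had 46.2, 50.4 and 52.0 CPM and then 89.1, 84.9 and 85.8 CPM (log2 fold change 0.81, SE 0.058, adjusted P = 3.98e-06). All 3 had every high glucose sample above every normal glucose sample. Adamts15 had 71.7, 76.4 and 79.1 CPM in normal and 155, 146 and 155 CPM in high glucose, for a fitted log2 difference of 1.003 (SE 0.057, adjusted P = 7.46e-07). Adamts20, known from pigment cell development, had 0.136, 0.183 and 0.203 CPM in normal and 0.529, 0.473 and 0.423 CPM in high glucose, for a fitted log2 difference of 1.44 (SE 0.23, adjusted P = 0.00092). Adamts9 rose by 0.36 on the log2 scale, and Adamts8 was too low to test.

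Of the procollagen N-proteinases, which remove the amino-terminal propeptide of fibrillar collagens, 2 rose and 1 fell, against 16.9% and 14.5% of all tested genes. Adamts2 had 683, 756 and 802 CPM in normal and 1010, 978 and 991 CPM in high glucose, for a fitted log2 difference of 0.41 (SE 0.063, adjusted P = 0.000711). Adamts3 rose by 0.64 and Adamts14 had -0.29 (adjusted P = 0.013), a call lost without normal glucose replicate 3 (adjusted P = 0.0519) and without high glucose replicate 3 (adjusted P = 0.0556). Both COMP-cleaving enzymes rose, Adamts7 by 0.33 and Adamts12 by 0.72. The fibrillin-linked Adamts6 and Adamts10 were not called, with 95% intervals of 0.01 to 0.48 and -0.14 to 0.23.

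The largest rise of any member was in Adamts17, a gene linked to short stature and eye defects, with 0.351, 0.345 and 0.281 CPM in normal and 1.14, 0.946 and 1.05 CPM in high glucose, for a fitted log2 difference of 1.68 (SE 0.17, adjusted P = 3.63e-05). This rests on 36 to 49 counts against 110 to 161. Adamts16 had 0.112, 0.0423 and 0.0390 CPM and then 0.190, 0.146 and 0.178 CPM (log2 fold change 1.42, SE 0.42, adjusted P = 0.0277). On 5 to 14 counts in normal glucose, it passed the filter mainly through its high glucose samples, and 8 of 17 alternative fits that tested it lost the call. Adamts19, also low, was not called (log2 fold change 0.66, 95% interval 0.08 to 1.24).

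All 5 ADAMTS-like genes changed, 4 upward, against 31.4% of all tested genes called and 16.9% called higher. Adamtsl2, which binds fibrillin and latent TGF-beta binding protein, had 3.97, 4.67 and 4.45 CPM in normal and 12.2, 11.1 and 12.1 CPM in high glucose, for a fitted log2 difference of 1.43 (SE 0.087, adjusted P = 1.18e-06). Adamtsl4, which promotes fibrillin microfibril assembly, had 37.8, 38.5 and 40.8 CPM and then 75.9, 76.9 and 77.8 CPM (log2 fold change 0.98, SE 0.052, adjusted P = 4.58e-07). The groups of both were tightly spaced and far apart. Adamtsl3 had 4.11, 5.15 and 4.79 CPM and then 8.60, 8.23 and 9.09 CPM (log2 fold change 0.88, SE 0.097, adjusted P = 7.38e-05). Adamtsl1 had 11.8, 14.5 and 14.8 CPM and then 24.6, 23.1 and 24.5 CPM (log2 fold change 0.81, SE 0.085, adjusted P = 4.9e-05). Adamtsl5 was the exception, with 55.7, 51.5 and 53.7 CPM in normal and 41.6, 35.7 and 37.9 CPM in high glucose, for a fitted log2 difference of -0.48 (SE 0.065, adjusted P = 0.000316).

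Most ADAMs gave no call, including the main sheddases. Of 18 tested, 4 were called, against 31.4% of all tested genes. Adam10, which cleaves Notch and cadherins, had 129, 160 and 146 CPM in normal and 156, 162 and 156 CPM in high glucose, for a fitted log2 difference of 0.12 (95% interval -0.04 to 0.29). Adam17, which releases TNF and EGF receptor ligands, had 132, 148 and 143 CPM and then 148, 153 and 141 CPM (log2 fold change 0.06, 95% interval -0.07 to 0.19). The groups overlapped for both genes. Adam9, the most abundant ADAM per kilobase, had 453, 516 and 505 CPM in normal and 468, 481 and 463 CPM in high glucose, for a fitted log2 difference of -0.06 (95% interval -0.19 to 0.07). Adam15 had 203, 186 and 205 CPM and then 196, 194 and 191 CPM (log2 fold change -0.03, 95% interval -0.15 to 0.09). Adam9 and Adam15 were called lower with library size scaling, where the median of all genes shifted by -0.11 on the log2 scale. The other 10 uncalled Adam genes had log2 fold changes from -0.57 (Adam28) to 0.63 (Adam1a). Transcripts of Adam1a and Adam1b share a run of 1082 bases, so their counts are uncertain. Exons of Adam1a also overlap those of Gm42878 and Mapkapk5 on its own strand and of Tmem116 on the other.

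The 4 ADAMs that were called split evenly by direction. Adam12, a protease of mesenchymal and muscle cells, had 95.9, 139 and 136 CPM in normal and 215, 217 and 222 CPM in high glucose, for a fitted log2 difference of 0.82 (SE 0.12, adjusted P = 0.000423). Normal glucose replicate 1 was the lowest, and the groups did not overlap. Adam33 had 57.5, 53.8 and 51.0 CPM and then 47.4, 34.0 and 43.4 CPM (log2 fold change -0.38, SE 0.10, adjusted P = 0.02). Adam11 and Adam22, neural ADAMs whose reading frames lack the zinc motif, moved apart. Adam11 had 1.501, 1.66 and 1.76 CPM and then 2.47, 2.34 and 2.32 CPM (log2 fold change 0.53, SE 0.11, adjusted P = 0.00378). Adam22 had 6.95, 7.67 and 7.63 CPM and then 5.12, 5.54 and 5.06 CPM (log2 fold change -0.50, SE 0.083, adjusted P = 0.00115). Among tested ADAMs, 2 of 12 with the motif and 2 of 6 without it were called, against 31.4% of all tested genes.

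Of 29 listed regulators and related enzymes of these proteases, 25 were tested. Of these, 7 were higher and 5 lower, against 16.9% and 14.5% of all tested genes. The largest rises were in the proprotein convertases Pcsk6 (log2 fold change 2.06, adjusted P = 2.11e-06) and Pcsk5 (1.53, adjusted P = 4.27e-08), which cut propeptides, and in Papln (0.50, adjusted P = 0.0326), an ADAMTS-related matrix protein. Pcsk5 had 246, 269 and 268 CPM in normal and 751, 747 and 762 CPM in high glucose, with no overlap. The largest falls were in the tolloid-like protease Tll2 (-1.65, adjusted P = 1.42e-05), the protease inhibitor Tfpi2 (-1.42, adjusted P = 1.22e-07) and the procollagen C-proteinase enhancer Pcolce2 (-1.33, adjusted P = 3.64e-06). Pcolce2 and Tll2 were low, at means of 5.77 and 2.46 CPM in normal glucose. Pcolce and Bmp1, on the same list, had means of 1087 and 841 CPM there and were called higher (log2 fold changes 0.41 and 0.37). Tll1 was called lower (-1.17). Reck, a membrane-anchored MMP inhibitor, was not called (adjusted P = 0.963).

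Of 14 listed substrates, 11 were tested, with 5 higher and 2 lower, against 16.9% and 14.5% of all tested genes. The largest rises were in the microfibril protein Fbn2 (log2 fold change 2.18, adjusted P = 3.82e-08), in Comp, the target of ADAMTS7 and ADAMTS12 (1.90, adjusted P = 0.0001), and in the proteoglycan versican, Vcan (0.85, adjusted P = 3.33e-05). Vcan had 508, 661 and 601 CPM in normal glucose and was above 1000 CPM in each high glucose sample. The EGF receptor ligands, which are released by ADAMs, moved in both directions. Ereg and Hbegf fell (log2 fold changes -0.74 and -0.56), Tgfa rose (0.59), Btc and Egf were not called (-0.11 and 0.22), and Areg was too low to test. Acan, which encodes aggrecan, was too low to test.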

How the data were processed

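RNA was sequenced from 3 normal glucose and 3 high glucose samples, grouped by their labels. The authors deposited raw gene counts made with StringTie from HISAT2 alignments to GRCm38, after trimming by Trimmomatic. Versions, annotation release and strand setting are not given in the sources used here. An overlap of 1 called member with another gene is not reported here. Counting both reads of a pair is possible, so halved counts were tried. Table columns were matched to samples through the names control and high glucose.

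In edgeR 4.0.16 (R 4.3.3), genes were filtered by filterByExpr (minimum count 10, minimum total 15), scaled by TMM and tested by quasi-likelihood, and P values were adjusted by Benjamini-Hochberg over all 19015 tested genes with a threshold of 0.05. Standard errors were derived from the F statistic. An exact permutation test of 3 against 3 samples, with a smallest P of 0.1, was not used. Depth was 120192466 to 146881356 counts per sample, and 3 counts correspond to 0.0204 to 0.025 CPM before TMM scaling. Alternatives included DESeq2 1.42.0, limma 3.58.1 (voom), other scalings and filters, a replicate block, each sample left out, and GC and length trends removed with mgcv 1.9.3. The fit was tested on simulated data.

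The members and lists were chosen with earlier results of these data known. Per-sample values were due for each Timp gene and, in every other family, for the 5 largest called changes and the 3 highest levels per kilobase. Mmp8, Mmp9, Mmp11, Mmp13, Pcsk5, Vcan, Pcolce, Bmp1 and Tll1 were chosen after values were seen. So were the genes flanking the chromosome 9 cluster, that cluster, the ratios, the promoter patterns and the sequences shown. The zinc-binding motif was to be sought in RefSeq proteins. Translated GENCODE M21 reading frames were used instead, and transcripts with internal stops were skipped. Its eighth place was widened in steps from glycine to asparagine (Adamts 18 of 19) and then serine (19 of 19), to take in members that had missed. Positions are from GENCODE M21 (GRCm38) and promoters from RefSeq (GRCm38.p6).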

Additional observations from a re-analysis of the deposited data

How the results depend on the processing

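Of the 42 called members, 37 kept their call and direction in each of 19 alternative fits that tested them. The exceptions were Adamts14, Adamts16, Mmp14, Mmp28 and Timp4. Leaving out 1 sample gave 21 to 25 members higher and 18 to 21 lower. Requiring an absolute log2 fold change of at least 1 left 5 higher and 6 lower, and testing against that size with glmTreat left 2 and 3, by construction of these thresholds. Library size scaling gave 22 higher and 21 lower and shifted the median of all genes by -0.11 (1819 genes higher, 4884 lower). Of the uncalled members, only Adam9, Adam10, Adam15, Adam17, Mmp2 and Timp2 were followed gene by gene, so changes in the others are not known. Among those followed, Adam17 turned in sign with library size scaling (-0.052) and without normal glucose replicate 1 (-0.00021, in a range of -0.00021 to 0.088 when 1 sample was left out). The cause was not tested. Also among those followed, Adam9 was called lower without normal glucose replicate 1 (adjusted P = 0.0338 in edgeR), Mmp2 higher with GC and length trends removed (0.0329), and Timp2 higher in the likelihood ratio test (0.0412) and limma-voom (0.0476).

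Both groups carry replicate numbers 1 to 3, but nothing says that they pair, and deviations of same-numbered samples correlated at -0.065, 0.040 and 0.045. With the replicate block, 23 members were higher and 18 lower, and 23 and 18 with GC and length trends also removed. In the correlations, 3 of 6 samples were closest to their own number.

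With 3 samples a group, log2 changes of 0.3, 0.5, 1 and 2 were simulated among 19015 genes, of which 18815 were left unchanged. These changes were recovered in 14, 54, 82 and 96% of cases, so small changes were often missed in the simulation. In the data, 31.4% of genes were called, a far larger share than was changed in the simulation. The share of small changes missed in the data was therefore not tested. Intervals rest on the spread between these samples alone.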
